A study of Mus musculus with 17 samples.

Results

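Gene deserts are long stretches of the genome without protein-coding genes, and the open chromatin inside them was followed here in neurons of the mouse nucleus accumbens, 1 h after cocaine. Overlapping peaks of the 17 libraries on chromosomes 1 to 19 were merged into 277655 regions, of which 176316 were called in 2 or more libraries. Of these, 45689 lay outside all GENCODE gene bodies, and 17238 of them were more than 100 kb from every protein-coding transcription start site. These 17238 regions (9.777% of the 176316, covering 11.3 Mb) are called gene desert regions, and the 27896 regions outside gene bodies that lay between 1 and 100 kb from a start site are called nearer intergenic regions. The innermost regions kept lay 100024, 100035 and 100055 bp from the start sites of Slc1a4, Gcfc2 and Trh, and the closest left out lay 99969, 99920 and 99905 bp from those of Mvb12b, Ubash3b and Rap2a.

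Chromatin accessibility had been measured by ATAC-seq, where the transposase Tn5 cuts and tags accessible DNA. Neuronal (NeuN+) nuclei were sorted from both nuclei accumbens of C57BL/6 mice (substrain C57BL/6J) aged 52 to 54 days. Females were grouped by estrous stage from vaginal smears, diestrus (low estrogen, high progesterone) or proestrus (high estrogen, low progesterone), and males formed a separate group. Cocaine-treated mice received 10 mg/kg cocaine by intraperitoneal injection 1 h before collection, and controls received no cocaine. Each library pooled nuclei of 3 animals. With and without cocaine in each sex or stage, there were 6 groups of 3 libraries, except that male cocaine had 2. The proestrus cocaine libraries are numbered 1, 2 and 4, and the stage of diestrus cocaine library 2 is given by its title alone. In a bulk measurement of pooled nuclei, fewer open nuclei and weaker opening per nucleus cannot be told apart. No injection of the controls is described in the sources used here, and an effect of the injection cannot be told apart from one of the drug.

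Gene deserts can hold distal regulatory elements such as enhancers, which can contact promoters over long distances. Deserts flanking developmental and neuronal adhesion genes are rich in conserved elements. AP-1 is the dimer of Fos and Jun proteins, which neurons induce after activity, and it binds the sequence TGACTCA (or TGAGTCA). Cocaine blocks reuptake of dopamine in the nucleus accumbens, where medium spiny neurons are the principal cell type.

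The regions below are selected examples of the patterns described afterwards. Each line gives the bases from 100 before to 100 after the summit of a region's most enriched peak over all libraries. Bases are from the plus strand of the RefSeq mouse genome (GRCm38, called mm10 in coordinates). Lines are named by the nearest protein-coding gene, with matches to the AP-1 sequence in capitals. Myt1l and Rapgef5 are nearest to 2 of the 5 regions with the highest median enrichment that were called in all 17 libraries and were neither repeat-rich nor beside an assembly gap. Hace1, Pkd1l1 and Dthd1 were called after cocaine in diestrus, Olfm4 in proestrus, and Ttll7 and Gm4340 in both. Kcnt2 and B3galt2 were called after cocaine in males, Hapln1 was lost there, and Ndst4 was lost in diestrus.
Myt1l (chr12:29291072-29291272): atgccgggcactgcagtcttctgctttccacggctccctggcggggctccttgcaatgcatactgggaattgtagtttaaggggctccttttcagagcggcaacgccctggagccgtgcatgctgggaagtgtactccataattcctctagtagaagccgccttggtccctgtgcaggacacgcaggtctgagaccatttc
Rapgef5 (chr12:117345470-117345670): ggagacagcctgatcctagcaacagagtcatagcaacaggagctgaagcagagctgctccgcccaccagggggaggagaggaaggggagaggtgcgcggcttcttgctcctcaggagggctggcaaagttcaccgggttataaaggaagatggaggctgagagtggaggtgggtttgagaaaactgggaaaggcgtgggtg
Hace1 (chr10:45778356-45778556): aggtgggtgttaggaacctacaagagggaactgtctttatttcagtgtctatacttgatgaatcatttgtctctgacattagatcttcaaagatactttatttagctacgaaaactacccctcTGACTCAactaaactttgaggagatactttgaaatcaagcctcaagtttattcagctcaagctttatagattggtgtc
Pkd1l1 (chr11:8821454-8821654): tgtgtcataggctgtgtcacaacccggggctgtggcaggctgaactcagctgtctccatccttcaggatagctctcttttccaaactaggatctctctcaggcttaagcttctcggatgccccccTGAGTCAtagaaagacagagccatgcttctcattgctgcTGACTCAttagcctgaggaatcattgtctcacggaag
Dthd1 (chr5:63063380-63063580): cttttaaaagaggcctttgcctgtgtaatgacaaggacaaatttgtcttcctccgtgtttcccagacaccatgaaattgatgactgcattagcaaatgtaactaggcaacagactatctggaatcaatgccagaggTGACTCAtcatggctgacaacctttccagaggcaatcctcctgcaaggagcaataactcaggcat
Olfm4 (chr14:80128194-80128394): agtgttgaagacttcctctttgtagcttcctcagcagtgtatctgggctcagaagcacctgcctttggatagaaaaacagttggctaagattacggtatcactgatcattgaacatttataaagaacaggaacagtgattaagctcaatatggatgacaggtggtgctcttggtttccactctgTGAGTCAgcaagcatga
Ttll7 (chr3:147175733-147175933): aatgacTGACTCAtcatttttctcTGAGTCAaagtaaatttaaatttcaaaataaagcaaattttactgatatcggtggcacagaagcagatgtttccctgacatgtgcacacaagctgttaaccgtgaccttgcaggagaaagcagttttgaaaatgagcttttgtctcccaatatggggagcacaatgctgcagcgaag
Gm4340 (chr10:104595899-104596099): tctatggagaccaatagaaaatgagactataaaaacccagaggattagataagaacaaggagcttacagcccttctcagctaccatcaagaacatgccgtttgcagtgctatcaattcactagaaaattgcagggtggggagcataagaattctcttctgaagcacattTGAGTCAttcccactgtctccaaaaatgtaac
Kcnt2 (chr1:141154748-141154948): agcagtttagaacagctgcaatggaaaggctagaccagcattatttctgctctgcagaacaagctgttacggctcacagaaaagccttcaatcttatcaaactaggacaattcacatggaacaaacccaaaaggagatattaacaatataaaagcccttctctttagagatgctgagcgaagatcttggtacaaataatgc
B3galt2 (chr1:142426780-142426980): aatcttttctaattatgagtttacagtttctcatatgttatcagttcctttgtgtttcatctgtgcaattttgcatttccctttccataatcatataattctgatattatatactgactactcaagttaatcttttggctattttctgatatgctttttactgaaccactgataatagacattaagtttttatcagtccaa
Hapln1 (chr13:89324300-89324500): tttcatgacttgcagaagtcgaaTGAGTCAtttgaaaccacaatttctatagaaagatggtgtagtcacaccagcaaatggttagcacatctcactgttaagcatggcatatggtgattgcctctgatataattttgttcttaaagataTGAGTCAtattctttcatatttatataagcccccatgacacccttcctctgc
Ndst4 (chr3:125228339-125228539): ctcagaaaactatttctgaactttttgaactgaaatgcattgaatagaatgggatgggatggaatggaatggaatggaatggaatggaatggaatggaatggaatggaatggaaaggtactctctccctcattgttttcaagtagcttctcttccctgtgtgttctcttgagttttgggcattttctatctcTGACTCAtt
AP-1 matches were present in the Hace1, Pkd1l1, Dthd1, Olfm4, Hapln1, Ttll7, Gm4340 and Ndst4 windows. Named regions gained in females near Spry2, Vwc2, Ftmt, Kit and Slitrk6 held no match and are not printed. Most gained regions held none, with matches in 26.03% of those gained in diestrus and 19.9% in proestrus. The Ndst4 window runs into tandem copies of the 5-base unit CATTC, here on the minus strand, described further on. A match describes letters in a window and is not a measured binding site.

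Libraries differed in how many peaks they held. Autosomal peaks per library numbered 74532 to 155025, and the 2 male cocaine libraries, with 86626 and 74532, had the fewest, while diestrus cocaine library 1 had the most. The background behind the peaks, 1 value for each library, was 6.26 to 9.55 reads of pileup. Fold enrichment was thus not corrected for local differences in pileup. Promoters of 6 of 6 neuronal and 7 of 7 medium spiny neuron markers were called in all 17 libraries. Among promoters of other cell types, 2 of 6 oligodendrocyte markers (Mbp and Olig1) were called in all 17 and 3 in none (Mog, Mag and Sox10), and no astrocyte marker was called in more than 4 libraries. At most 12 libraries called a microglial marker and 13 an endothelial one, with Cx3cr1, Cldn5 and Flt1 called in none. The part of these cells in the results was not tested. Absence of a peak is not absence of reads, since a peak is a call above a threshold.

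Gene desert regions were AT-rich, and most were called in a minority of libraries. Their median was 5 of 17 libraries, against 6 for both the nearer intergenic regions and all regions. In all 17 libraries, 2953 (17.1%) were called, against 18.5% of nearer intergenic regions and 20.5% of all regions, and 6483 (37.6%) were called in only 2 or 3. Mean GC content was 40.1% ± 6.73 (SD over regions), against 45.1% for nearer intergenic and 44.0% for all regions. The median width was 523 bp (quartiles 400 and 749), against 558 and 625 bp. Annotated repeats covered more than 50% of the window in 630 gene desert regions (3.65%), against 7.69% of nearer intergenic regions.

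The distance to the nearest protein-coding start site had a median of 267 kb (quartiles 160 and 469 kb) and a maximum of 2543 kb, and 52.5% of the regions lay upstream of that gene. From 100 to 200 kb lay 6247 regions (36.2%), from 200 to 500 kb 7104, from 500 to 1000 kb 2858, and beyond 1000 kb 1029 (5.97%). Across these 4 classes mean GC content went from 42.5% to 40.3%, 36.7% and 34.2%. The share called in all 17 libraries went from 18.7% to 17.5%, 15.01% and 10.98%. CTCF, an insulator protein, had its motif in 2.40%, 1.17%, 1.05% and 0.777% of the windows. All of these descended with distance. The 3 farthest regions lay upstream of Pcdh20, a protocadherin gene of chromosome 14. The farthest, at chr14:91014645-91015152, was called in 15 libraries at a fold enrichment of 2.23 to 4.08. It was absent in diestrus cocaine library 3 and proestrus control library 2 alone.

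Within a library, called gene desert regions differed from called nearer intergenic regions in base composition and in the AP-1 sequence. Their mean GC content was 40.8% against 45.5%, lower in 17 of 17 libraries (mean difference −4.67 ± 0.706 points, SD over libraries, n = 17, sign-flip permutation test with 100000 resamples, two-sided, adjusted p = 4e-05). AP-1 matches within 100 bp of the summit were held by 15.2% of called gene desert regions against 12.6%, higher in 17 of 17 libraries (difference 2.60 ± 1.08 points; permutation test, adjusted p = 4e-05). Peaks were narrower by 9.12 ± 11.99 bp, lower in 13 of 17 libraries (permutation test, adjusted p = 0.0111), but with a limit of 50 kb the adjusted p of the width was 0.304. Median fold enrichment, the pileup at the summit over the library's background, differed by 0.0107 ± 0.195 (permutation test, adjusted p = 0.820), with 6 libraries higher and 4 lower. The 17 libraries share regions, so these tests compare 2 sets of places in the same libraries.

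Over all regions rather than per library, AP-1 was found in 12.9% of gene desert windows, 10.9% of nearer intergenic windows and 9.35% of all windows of this length. The motif of MEF2, a neuronal transcription factor family, was found in 8.47%, against 5.72% and 5.85%. The homeodomain core TAATTA, which can lie within a MEF2 match, was found in 10.7%, against 6.63% and 7.47%. CTCF, the E-box and the cAMP response element were scarcer than in nearer intergenic regions. CTCF was found in 1.57%, against 4.21% and 1.96%, the E-box CAGCTG in 10.7%, against 12.5% and 11.6%, and the cAMP response element TGACGTCA in 0.220%, against 0.333% and 0.439%. Both strands were searched. The gene desert regions had a mean GC content of 40.1%, against 45.1% and 44.0%. The part of base composition in these motif differences was not tested. AP-1 was commonest in the regions called in all 17 libraries (18.4%), less common in those called in 4 to 16 (13.9%) and least in those called in 2 or 3 (9.12%). The regions called in all 17 libraries were also wider (median 1048 bp, against 561.5 bp for those in 4 to 16) and more enriched (median 5.45, against 3.20 and 2.98).

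The number of gene desert regions called was highest in male controls and lowest in proestrus controls. Diestrus control libraries called 7071, 7233 and 8246, and diestrus cocaine libraries 8893, 8384 and 7133, so these groups overlapped. Proestrus control libraries called 6055, 5608 and 6031, all below the 9409, 7191 and 9008 of proestrus cocaine. Male control libraries called 10298, 11052 and 11091, the most of all, against 6961 and 6024 in male cocaine. The differences after cocaine were 620 in diestrus (exact permutation test, two-sided, p = 0.3, adjusted p = 0.35), 2638 in proestrus and −4321 in males (exact p = 0.1 for both, the smallest that 3 against 3 or 2 against 3 libraries allow, adjusted p = 0.15). P-values of 21 tests were adjusted together. Over the 3 groups together the difference was −354 (exact permutation within groups, adjusted p = 0.690), and over the 2 female stages alone it was 1629 (exact p = 0.015, adjusted over 3 measures 0.015). That female comparison was added after the data were seen. Before cocaine, male libraries called 4106 more gene desert regions than female ones, with no overlap between 3 and 6 libraries (exact permutation p = 0.0119, the smallest possible, adjusted p = 0.0417).

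As a share of all regions called in a library, gene desert regions were higher after cocaine in both female stages. The share was 8.33%, 7.63% and 8.28% in diestrus controls and 8.35%, 10.6% and 10.4% in diestrus cocaine. It was 7.69%, 7.11% and 6.91% in proestrus controls and 10.4%, 8.80% and 10.2% in proestrus cocaine. It was 9.74%, 11.4% and 10.4% in male controls and 11.1% in both male cocaine libraries. No cocaine library in either female stage fell below a control of the same stage, although diestrus cocaine library 1 exceeded the highest control by a small margin only. The difference was 1.72 points in diestrus and 2.56 in proestrus (exact permutation p = 0.1 and adjusted p = 0.15 for each) and 0.559 in males (exact p = 0.4, adjusted p = 0.442). The male value was −1.52 where a −log10 q of 5 or more was required, and −0.675 and −0.502 without male cocaine library 1 and 2, so its sign was not stable. Over the 3 groups together the share rose by 1.61 points (exact permutation within groups, p = 0.00275, adjusted p = 0.0289). Over the 2 female stages it rose by 2.14 points (exact p = 0.005, the smallest possible, adjusted over 3 measures 0.0075). The share of nearer intergenic regions differed by −0.181 points in diestrus, −0.269 in proestrus and −2.16 in males (−0.871 over the 3 groups, not tested). With libraries brought to the same GC composition the rise in gene deserts was 1.22 points (exact permutation, adjusted p = 0.00525). Where a −log10 q of 5 or more was required it was 0.736 points (exact permutation, adjusted p = 0.233), and the call was lost. Male controls had a share 2.86 points above that of female controls (exact permutation, adjusted p = 0.0417).

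**Figure D1:**
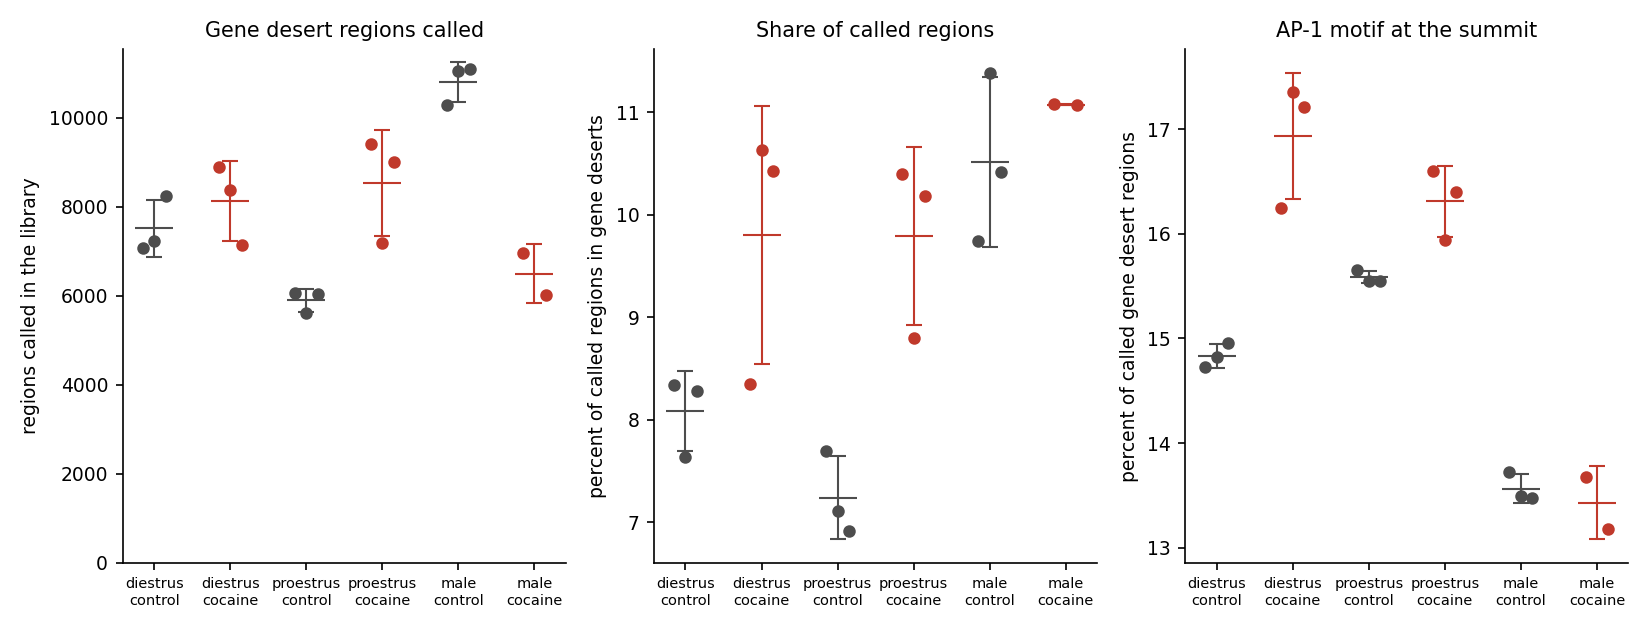
Gene desert regions in each of the 17 libraries, by group (x axis). Points are libraries, horizontal marks and whiskers are the group mean ± SD, and the y axes give the number called, the percentage of all called regions and the percentage of called gene desert regions with an AP-1 match within 100 bp of the summit (the last pair of axes do not start at 0). Male controls should be seen at the top of the first panel, at 10298 to 11091, and diestrus cocaine at the top of the third, at 16.2% to 17.4%.

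The AP-1 share of called gene desert regions was also higher after cocaine in females. It was 14.7%, 14.8% and 14.95% in diestrus controls and 16.2%, 17.4% and 17.2% in diestrus cocaine, without overlap. In proestrus it was 15.7%, 15.5% and 15.6% in controls and 16.6%, 15.9% and 16.4% after cocaine, again without overlap. In males it was 13.7%, 13.5% and 13.5% in controls and 13.7% and 13.18% after cocaine, the first within the control range and the second below it. The difference was 2.11 points in diestrus and 0.725 in proestrus (exact permutation p = 0.1 and adjusted p = 0.15 for each) and −0.132 in males (exact p = 0.6, adjusted p = 0.63). Over the 3 groups it was 0.900 points (exact permutation within groups, adjusted p = 0.0417), and over the 2 female stages 1.42 points (exact p = 0.005, adjusted over 3 measures 0.0075). Nearer intergenic regions (1.77 points) and all called regions (1.22 points) differed in the same direction over the 3 groups. With a limit of 200 kb the difference in gene deserts was 0.441 points (exact permutation, adjusted p = 0.233). The male difference in AP-1 share was 2.08 points where a −log10 q of 5 or more was required (exact permutation, adjusted p = 0.14), so its sign depends on the threshold. Male controls had a share 1.65 points lower than female controls, a value of −1.65 in male minus female (exact permutation, adjusted p = 0.0417).

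These calls rest on few libraries. Without any 1 of the 9 control libraries other than male controls 2 and 3, or without proestrus cocaine 1 or male cocaine 1 or 2, the adjusted p of the rise in share over the 3 groups was 0.05 to 0.144 (exact permutation). The AP-1 call over the 3 groups was lost without any 1 of the 9 controls or proestrus cocaine 1, at adjusted p of 0.0525 to 0.117. The male against female control calls were lost without any control, proestrus cocaine 1 or either male cocaine library, at adjusted p of 0.05 to 0.125. Leaving out a control library leaves fewer assignments to permute. With peaks that had to cover 50% of a region, or with a limit of 200 kb, the male against female control calls were also lost (exact permutation, adjusted p = 0.05 for each), as was the AP-1 call over the 3 groups (adjusted p = 0.0674 and 0.233). With the replicate number as a block the share rose by 1.48 points and AP-1 by 0.865 points over the groups (exact permutation, adjusted p = 0.375 for both).

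A region was counted as gained where every cocaine library of a group called it and no control library of that group did, and as lost in the reverse case. The rule asks 6 libraries to agree in a female stage and 5 in males. One region cannot pass a test with 3 libraries a group, so these counts are given beside the share of all 176316 regions. In diestrus 365 gene desert regions were gained, 2.12% of them, where 0.924% of all regions and 0.989% of nearer intergenic regions were. Lost there were 134 (0.777%), where 1.05% of all regions were. In proestrus 725 were gained (4.21%), where 2.00% of all and 2.03% of nearer intergenic regions were, and 57 were lost (0.331%), where 1.36% of all were. In males 1027 were gained (5.96%), where 1.38% of all and 0.903% of nearer intergenic regions were. Lost in males were 3448 (20%), where 13.8% of all and 18.1% of nearer intergenic regions were. The gained shares of gene deserts thus lay above the background in all 3 groups, and the lost share was above it in males alone. With the strongest 74532 peaks of each library, 452 were gained in proestrus, 1055 gained in males and 1460 lost in males. Where a −log10 q of 5 or more was required, the number gained in males was 157, and 465 were gained in proestrus and 62 lost in diestrus.

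Single libraries moved these counts. Without diestrus cocaine library 1, 777 were gained and 700 lost in diestrus. Diestrus gained 605 without cocaine library 3 and 595 without control library 3, and lost 280, 289 and 208 without control libraries 1, 2 and 3. Proestrus gained 1804 without cocaine library 2. Proestrus lost 102, 119 and 117 without control libraries 1, 2 and 3, and 97 and 96 without cocaine libraries 1 and 4. Males gained 439 without cocaine library 1 and 617 without cocaine library 2. After leaving out regions whose window is mostly repeat, 359 were gained and 124 lost in diestrus, 708 gained and 48 lost in proestrus, and 963 gained and 3362 lost in males.

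**Figure D2:**
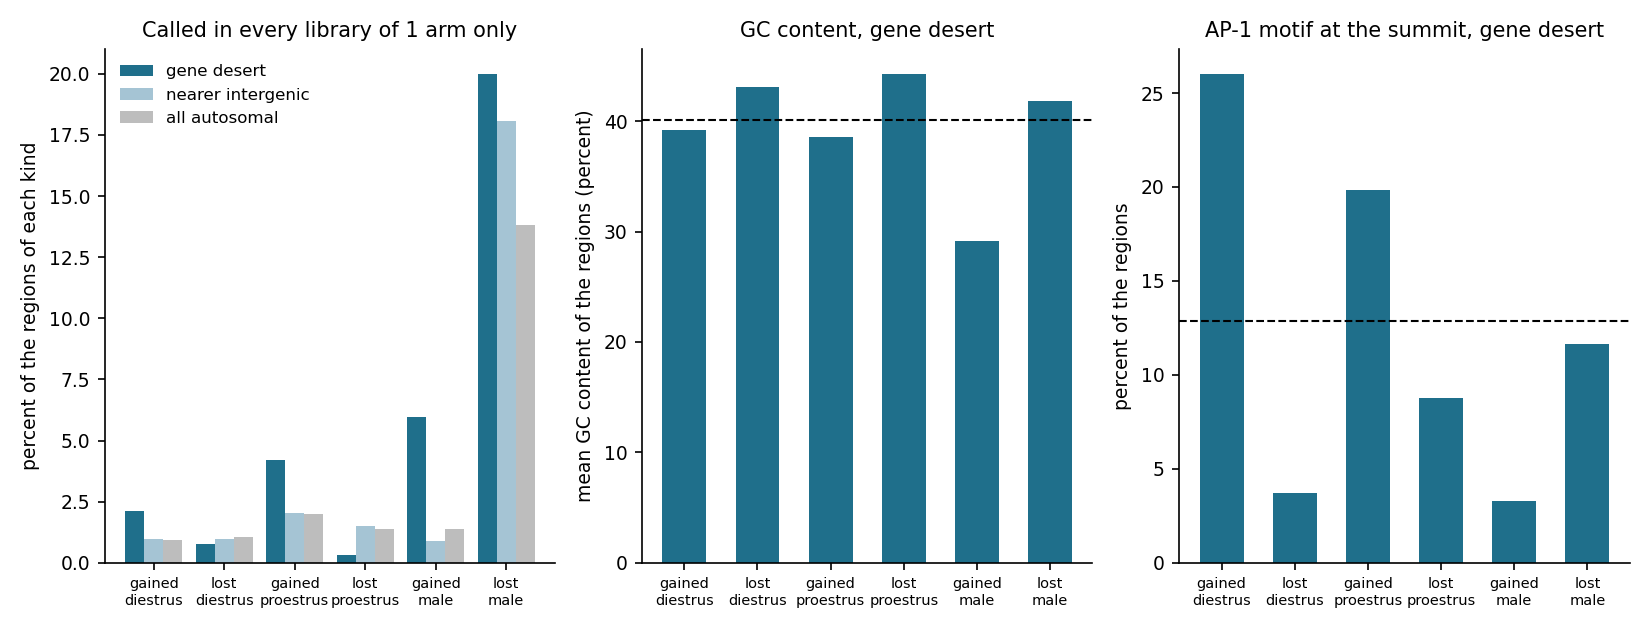
Gene desert regions gained or lost after cocaine in diestrus, proestrus and males (x axis). Bars give the percentage of gene desert, nearer intergenic and all autosomal regions, then the mean GC content and the AP-1 share in percent of the gained or lost gene desert regions, with dashed lines at the values of all gene desert regions (40.1% and 12.9%) and no error, since each bar is 1 count or mean over regions. Among the gained, gene deserts should be seen above all regions in each group, at 2.12%, 4.21% and 5.96%.

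The gained and lost regions differed in sequence. AP-1 matched in 26.03% of those gained in diestrus and 19.9% of those gained in proestrus, against 12.9% of all gene desert regions. It matched in 3.73% of those lost in diestrus, 8.77% of those lost in proestrus, 3.31% of those gained in males and 11.7% of those lost in males. The regions gained in males were the most AT-rich, with a mean GC content of 29.1%, where those gained in diestrus had 39.2% and those gained in proestrus 38.5%. The regions lost in males had 41.8%. Among all 176316 regions, AP-1 matched in 21.7%, 17.3% and 4.14% of those gained in diestrus, proestrus and males, and the mean GC content of those gained in males was 30.9%. The 2 male cocaine libraries also called the most AT-rich gene desert regions, at 38.7% mean GC against 40.4% to 41.5% in the other groups. The part of the libraries' base composition in this was not tested. The male gained share went up with distance, from 2.13% at 100 to 200 kb to 4.79%, 11.6% and 21.6% beyond 1000 kb. The share gained in diestrus (2.08%, 2.24%, 2.03% and 1.75%) and in proestrus (3.89%, 4.18%, 4.65% and 5.05%) varied less, and the male lost share went from 21.3% to 20.4%, 18.2% and 14.3%.

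**Figure D3:**
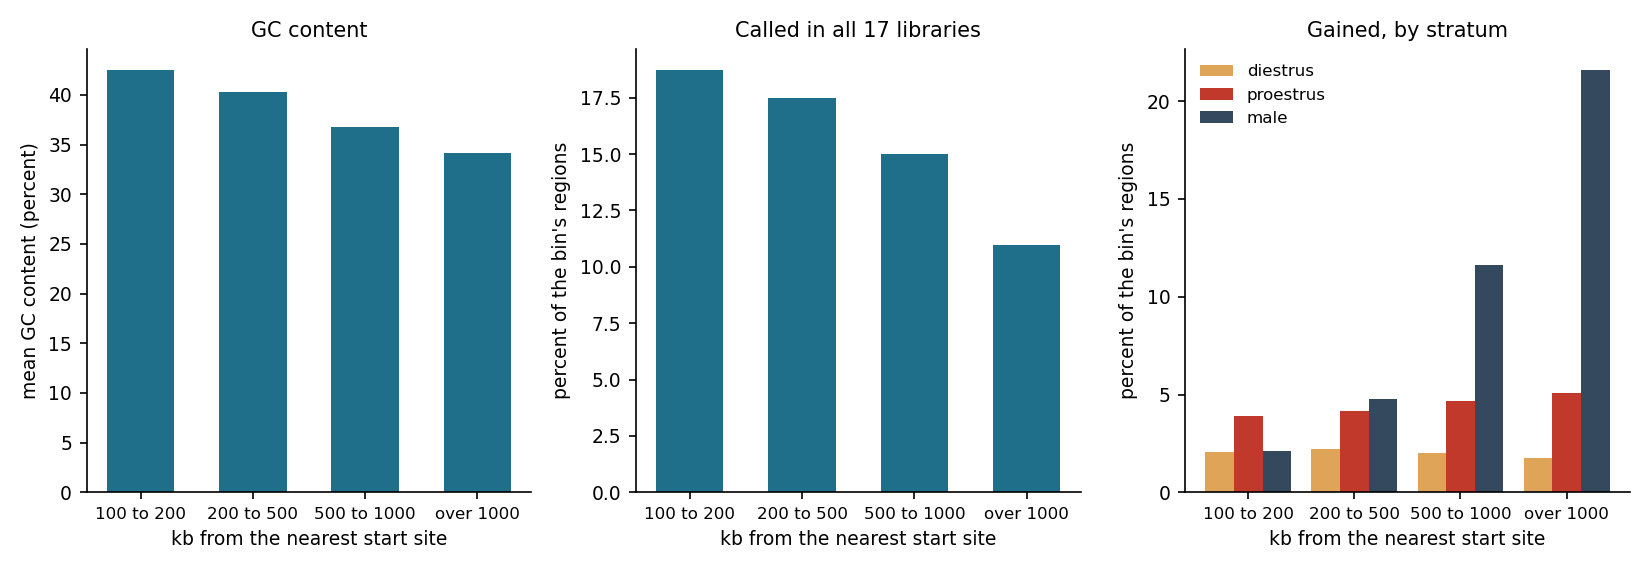
Gene desert regions in 4 classes of distance to the nearest protein-coding start site (x axis, kb). Bars give the mean GC content in percent, the percentage of a class called in all 17 libraries and the percentage gained after cocaine in diestrus, proestrus and males, and the male gained share should be seen going up from 2.13% to 21.6% as GC content goes down from 42.5% to 34.2%.

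Some regions were called in every library of 1 group and in no other library. There were 1575 such gene desert regions in male controls (9.14%, against 3.89% of all regions) and 814 in male cocaine (4.72%, against 0.808% of all regions). The rule asks 2 libraries to agree in male cocaine and 3 in each other group. In females there were 43 in diestrus controls (0.249%, against 0.239% of all regions) and 18 in diestrus cocaine (0.104%, against 0.0431%). In proestrus there were 4 in controls (0.0232%, against 0.126%) and 12 in cocaine (0.0696%, against 0.0431%). Among controls alone, 2350 were called in every male and no female library (13.6%, against 5.93% of all regions and 8.62% of nearer intergenic regions), and 40 in every female and no male library (0.232%, against 0.261% of all regions). AP-1 matched in 10.98% of the 2350 and in 30% of the 40, where over all regions of the same calls it matched in 11.2% and 11.06%. The difference between them was not tested.

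In diestrus the 3 gained regions with the highest mean enrichment in cocaine libraries all held an AP-1 match. Hace1 encodes a ubiquitin ligase, and the region chr10:45778177-45778805 lies 105.6 kb downstream of its start site. It reached a fold enrichment of 5.70, 4.91 and 4.02 in diestrus cocaine and was not called in the 3 diestrus controls. Male controls called it at 3.19, 2.89 and 2.74 and neither male cocaine library did, so it went the other way there. The Pkd1l1 region (chr11:8821313-8821789, 128.8 kb downstream) reached 5.34, 6.29 and 2.99 in diestrus cocaine and was called in only 1 proestrus control (2.84) and 1 male control (3.06). Proestrus cocaine called it at 4.31, 2.46 and 3.87. The Dthd1 region (chr5:63063205-63063754, 249.4 kb downstream) reached 3.56, 6.16 and 3.79 in diestrus cocaine, and all 6 proestrus libraries called it, the controls at 3.17, 3.48 and 2.56.

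In proestrus the leading gained region lay 127.8 kb downstream of Olfm4, at chr14:80128143-80128629, with fold enrichments of 6.71, 2.78 and 5.24 after cocaine and no call in proestrus controls. It was called in all 6 diestrus libraries, the controls at 3.23, 3.91 and 2.59 and cocaine at 6.65, 4.91 and 4.82, without overlap between them. The next, 307.7 kb downstream of Spry2, an inhibitor of receptor tyrosine kinase signalling, reached 2.90, 8.66 and 3.04 after cocaine in proestrus. The third, 869.8 kb upstream of Vwc2, reached 5.81, 4.06 and 4.61 in proestrus cocaine. Diestrus called it at 3.23, 2.46 and 2.70 in controls and 4.87, 4.15 and 4.25 after cocaine. The Olfm4 and Vwc2 regions thus had higher values after cocaine in both female stages.

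In both stages together, 88 gene desert regions were gained (0.511% of them, against 0.164% of all regions). They made up 24.1% of those gained in diestrus and 12.1% of those gained in proestrus, against 17.7% and 8.21% over all regions. These shares start from different base rates. Gained in proestrus were 4.21% of gene desert regions and 2.00% of all, and in diestrus 2.12% and 0.924%. Whether the stages shared more regions in gene deserts was not tested. Of the 88, 33.0% held an AP-1 match. Of the 88, 24 were called in all 3 male controls, 44 in none, and 10 in both male cocaine libraries. The Ttll7 region (chr3:147175439-147176345, 278.8 kb downstream of this tubulin-modifying enzyme) holds 2 matches in its window. It reached 4.87, 4.03 and 3.91 in diestrus cocaine and 3.91, 3.42 and 3.87 in proestrus cocaine, and was called in none of the 6 female controls, in 1 of 3 male controls (2.62) and in 1 of 2 male cocaine libraries (2.51). The Gm4340 region (chr10:104595768-104596322) reached 4.27, 4.78 and 3.68 in diestrus cocaine and 3.61, 3.10 and 4.50 in proestrus cocaine. It was also called in male controls 2 and 3 at 3.86 and 2.85 and in male cocaine at 3.61 and 3.02. A region 116.2 kb upstream of Kit, a receptor tyrosine kinase, was called in all 6 female cocaine libraries (2.85 to 6.04) and in no female control, but in all 3 male controls (3.70, 3.31 and 3.18) and neither male cocaine library. The region 769.2 kb downstream of Slitrk6, a synaptic adhesion gene, was called in the 6 female cocaine libraries at 3.04 to 5.28 and in 2 male controls and both male cocaine libraries at 3.18 to 4.18.

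The 3 leading gained regions in males were called at 3.39 to 4.77 in the male cocaine libraries. The leading one, 908.3 kb downstream of the potassium channel gene Kcnt2 at chr1:141154517-141154978, was called in the male cocaine libraries at 3.72 and 4.53 and in no other library. A second in the same desert, 1213 kb upstream of the glycosyltransferase gene B3galt2 at chr1:142426579-142427322, was called at 3.39 and 4.77 in these alone. The Api5 region, 397.5 kb upstream, was called at 3.94 and 4.30 in male cocaine and also in 10 female libraries, at 2.57 to 4.91.

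Lost regions in males were among the strongest contrasts. The region 214.8 kb upstream of Hapln1, a hyaluronan link protein of the extracellular matrix, at chr13:89324019-89324958, reached 12.9, 13.8 and 10.98 in male controls and was not called in male cocaine. Female libraries that called it gave 2.41 to 4.51. The Kynu region (230.9 kb upstream of this kynurenine pathway enzyme) reached 11.6, 11.2 and 10.2 in male controls, none in male cocaine and 2.26 to 4.11 in 6 female libraries. The Cyp7b1 region (425.5 kb upstream of this steroid hydroxylase) reached 10.96, 10.5 and 10.98 in male controls and was otherwise called in proestrus cocaine 1 and 4 alone, at 3.00 and 2.93. In all 3 regions every male control value exceeded every value elsewhere. The 3 were picked for their enrichment in male controls and the lack of a call in male cocaine, so this height follows in part from the choice.

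**Figure D4:**
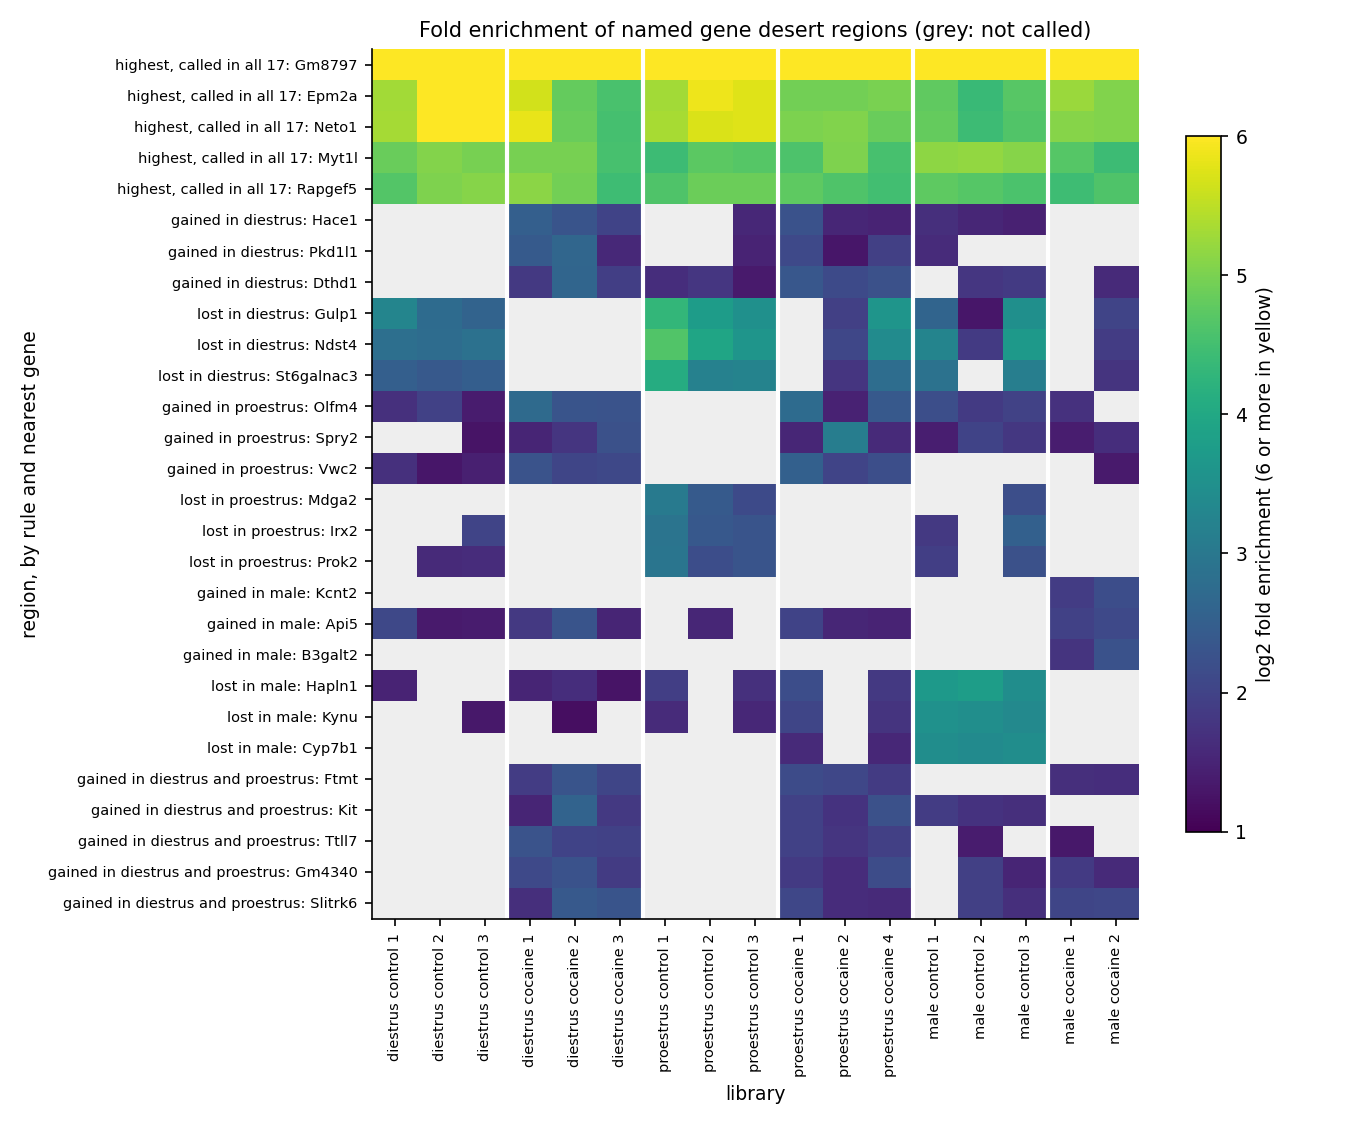
Fold enrichment of 28 named gene desert regions (rows, by rule and nearest gene) in each of the 17 libraries (columns, by group). Colour gives the log2 fold enrichment, values of 6 or more share 1 colour, and grey cells had no peak. The Hapln1, Kynu and Cyp7b1 regions should be seen bright in the 3 male controls, where fold enrichment was 10.2 to 13.8.

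Across all groups, a region was tested by whether it was called in cocaine more often than in control libraries, in the 65507 regions called in 4 to 13 libraries, of which 6235 were in gene deserts. After adjustment over the 65507, no region passed in either direction (Fisher's exact test, 0 of 65507, 0% of all regions). At an unadjusted p under 0.05, 669 gene desert regions were called more often after cocaine (10.7%, where 3.61% of all regions were) and 288 less often (4.62%, where 9.02% of all were). AP-1 matched in 22.0% of the first and 4.17% of the second, near the 21.02% and 5.42% over all regions of the same calls. In the 12 female libraries alone, a comparison added after the data were seen, 423 of 3665 tested gene desert regions were called more often (11.54%, against 3.66% of all) and 25 less often (0.682%, against 1.83% of all), and again none after adjustment. The smallest p was 4.11e-05 (Fisher's exact test, adjusted p = 0.148), shared by 4 gene desert regions called in all 8 cocaine libraries and no control and by 1 called in all 9 controls and no cocaine library. Without 1 library the number called more often was 349 to 707 and less often 131 to 351.

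The 3 named from the 4 lay nearest to Ftmt, Pabpc4l and Amy2a5. The Ftmt region (chr18:52163919-52164699, 166.8 kb upstream of this mitochondrial ferritin) reached 3.68, 4.91 and 4.13 in diestrus cocaine, 4.41, 4.17 and 3.67 in proestrus cocaine and 3.17 and 3.14 in male cocaine. The Pabpc4l region gave 2.57 to 4.31 over the same 8 libraries, and the Amy2a5 region 2.51 to 3.60. The 1 region called in controls only lies 716.5 kb downstream of Hnf4g, a nuclear receptor, at chr3:4350628-4351129. It reached 2.84, 2.90 and 3.22 in diestrus controls, 4.22, 3.13 and 3.70 in proestrus controls and 4.84, 3.99 and 4.17 in male controls. All of these are low enrichments near the threshold of a call.

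Called in all 17 libraries with the highest median enrichment was a region at chr3:5860229-5860973, 109.4 kb downstream of Gm8797, with a median fold enrichment of 134 and a range of 84.8 to 336. The Epm2a region, next in rank, gave 21.1 to 97.4, and that near Neto1 21.6 to 99.8. All 3 were highest in diestrus control library 2 and next highest in diestrus control library 3. The Myt1l region (chr12:29289088-29293123, 235.3 kb upstream of this neuronal zinc finger gene) was more even. It had 29.0, 33.7 and 31.2 in diestrus controls, 31.3, 31.4 and 23.4 in diestrus cocaine, 21.6, 26.6 and 25.5 in proestrus controls and 24.4, 32.6 and 23.2 in proestrus cocaine. In males it had 35.4, 36.5 and 34.2 in controls and 25.7 and 21.6 after cocaine, so the male groups did not overlap. The Rapgef5 region (chr12:117339535-117348102) gave 21.8 to 35.1, with overlapping groups in each of the 3. A region near Samd9l, with a median of 38.3, was left out of this ranking because it lies beside an assembly gap, and 36.8% of its window's 20-base words occur in an 18S ribosomal RNA-related sequence. No other gene desert window, those near Gm8797, Epm2a and Neto1 included, shared a 20-base word with that sequence. No other ribosomal RNA sequence was searched for. Whether the Gm8797, Epm2a and Neto1 windows hold other ribosomal RNA sequence was not tested, so their high enrichment may not reflect open chromatin. No window of the 17238 shared a 30-base word with the mitochondrial genome.

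Lost regions of the female groups included simple repeats. The 3 leading ones in diestrus lay near Gulp1, Ndst4 and St6galnac3, with 95.5%, 41.8% and 68.7% of the window in annotated repeats. The Ndst4 region, printed above with its tandem unit, was called at 7.10, 6.81 and 7.26 in diestrus controls and in no diestrus cocaine library. It was called at 25.02, 15.3 and 12.1 in proestrus controls. Windows of 11 gene desert regions held 3 tandem copies of CATTC, a set chosen after its values were seen. All 11 were called in each of the 3 proestrus controls, 10 in male control library 3, and 2 to 8 in each of the other 13 libraries. Of the 57 regions lost in proestrus 3 were of this kind, and of the 134 lost in diestrus 2. In proestrus the leading lost regions, near Mdga2, Irx2 and Prok2, had 100%, 65.7% and 44.3% repeat and reached 8.34, 7.60 and 7.71 in control library 1 and 4.36 to 5.34 in the other two controls. Reads of such repeats are hard to assign to 1 copy.

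The regions fell into 1374 intervals between neighbouring protein-coding start sites, here called deserts. A desert held a median of 7 regions, 176 held 1, and the 282 that held 20 or more contained 10206 of the regions (59.2%). By chromosome the share of regions that lay in gene deserts went from 4.90% on chromosome 7 to 14.3% on chromosome 3. The fullest desert, from Celf4, an RNA-binding protein of neurons, to Pik3c3, a lipid kinase, held 129 in 4.52 Mb. The next, between the cadherin genes Cdh8 and Cdh11, held 102. The 10 fullest held 880 (5.11% of the regions).

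Cocaine groups differed between deserts. In Celf4 to Pik3c3, diestrus controls called 47, 44 and 46 and diestrus cocaine 62, 75 and 67, proestrus controls 31, 36 and 37 and proestrus cocaine 72, 56 and 76, and male controls 69, 86 and 78 and male cocaine 52 and 35. Controls and cocaine overlapped in none of the 3. In Kcnt2 to B3galt2, with 97 regions and a GC content of 32.8%, proestrus controls called 15, 14 and 13 and proestrus cocaine 40, 19 and 41, and male controls called 36, 49 and 42 and male cocaine 51 and 49. Of these 97, 30 were gained in males and 17 lost. In Vrk1 to 3110018I06Rik, the densest of the 10 at 57.6 regions per Mb and with a GC content of 46.3%, proestrus controls called 50, 49 and 57 and proestrus cocaine 42, 38 and 39. Of its 84 regions none was gained in any group. The deserts were ranked by their regions, and no test was made between them.

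**Figure D5:**
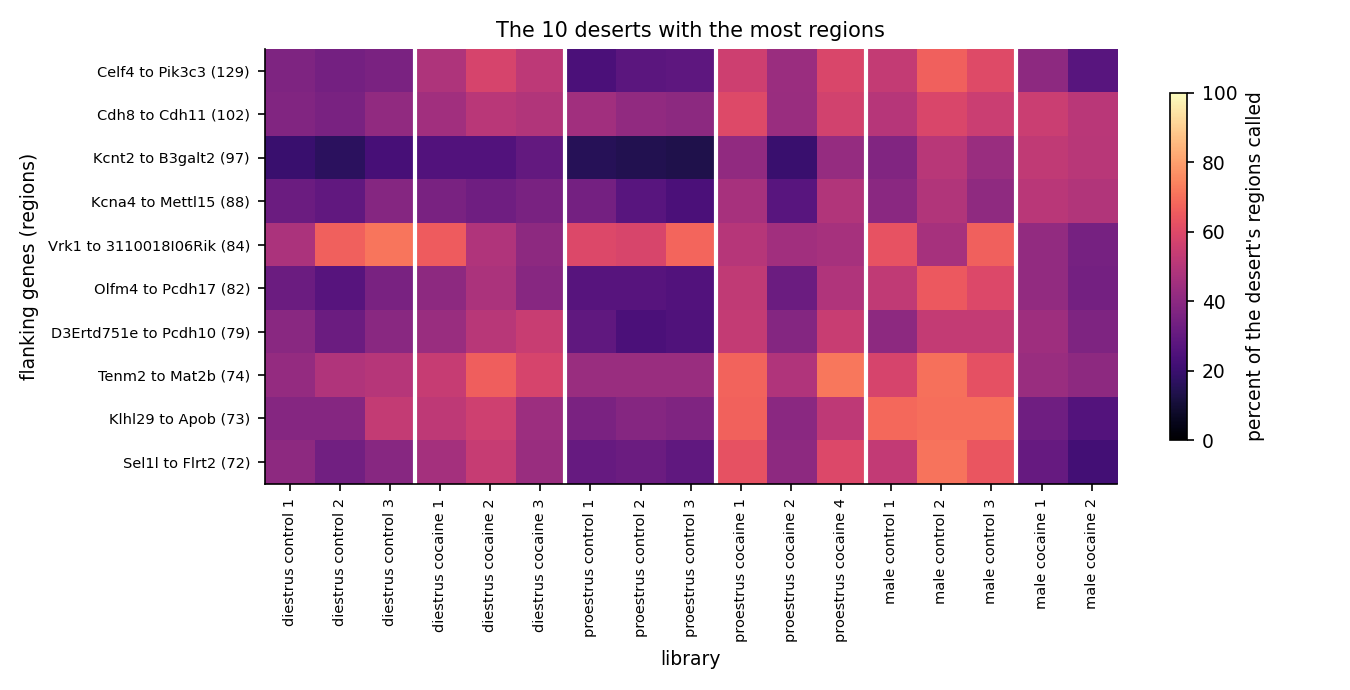
The 10 gene deserts with the most regions (rows, flanking genes with the number of regions) in each of the 17 libraries (columns, by group). Colour gives the percentage of a desert's regions that the library called. The Celf4 to Pik3c3 desert should be seen brighter after cocaine in proestrus, where the number called went from 31 to 37 in controls to 56 to 76, and the Vrk1 desert darker, from 49 to 57 down to 38 to 42.

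The nearest protein-coding gene was 1 of 2006 genes, with a median of 5 regions each and 20 or more for 239. Pik3c3 (97), Cdh11 (76), D3Ertd751e and Kcna4 (64 each), Vrk1 (60), Celf4 (58), Hace1 (57), B3galt2 and Cdh8 (55 each) and Slitrk1 (54) came first. A nearest gene is a label of position and not a measured target.

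Adhesion genes had many gene desert regions beside them. Of 31 classical cadherins and non-clustered protocadherins, cell-cell adhesion proteins, 22 were nearest to 640 gene desert regions, of which 110 (17.2%) were gained in males, where 5.96% of all gene desert regions were. Their diestrus and proestrus gained shares were 1.88% and 3.59%, near those of all gene desert regions. Lost in males were 97 of the 640 (15.2%), where 20% of all gene desert regions were. Cdh11 had 12 of its 76 regions gained and 16 lost in males, Pcdh20 14 gained and 2 lost of 49, and Cdh9 12 gained and 5 lost of 45. The mean number called in male controls and male cocaine was 42 and 35 for Cdh11, 21 and 31.5 for Pcdh20, and 19 and 25.5 for Cdh9. Of 60 synaptic adhesion genes, 37 were nearest to 638 regions, of which 72 (11.3%) were gained and 121 (19.0%) lost in males. Where a −log10 q of 5 or more was required, the number gained in males over all gene deserts was 157 rather than 1027. Over all gene desert regions the male gained share went up with distance, from 2.13% at 100 to 200 kb to 21.6% beyond 1000 kb. The farthest regions of Cdh9 and Pcdh20 lay at 1746 and 2543 kb. The part of distance and GC content in the male shares of both lists was not tested. Slitrk1 had 15 of 54 gained in males, with mean numbers called of 19.3 in male controls and 30 in male cocaine, and of 5 in proestrus controls and 19.3 in proestrus cocaine. Of 48 axon guidance genes, 27 were nearest to 320 regions, with 12 (3.75%) gained and 64 (20%) lost in males, where 5.96% and 20% of all gene desert regions were. Robo2, the receptor of Slit, had 47.

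Medium spiny neurons signal through dopamine, glutamate and their own peptides. Of 48 signalling genes of these neurons, 20 were nearest to 279 regions, of which 21.5% were called in all 17 libraries, against 17.1% of all gene desert regions. Drd1, the D1 dopamine receptor, had 29 regions 109 to 290 kb from its start site, 13 of them called in all 17 libraries, 24.1% with an AP-1 match, and none gained or lost in any of the 3 groups. Its mean number called was 19.7 in diestrus with and without cocaine, 17.7 and 16.3 in proestrus controls and cocaine, and 18 and 16 in male controls and cocaine. Grm7, a metabotropic glutamate receptor, had 34 regions. Of 49 striatal transcription factor genes, 32 were nearest to 326 regions (18.4% in all 17), led by the retinoic acid receptor gene Rarb with 37 regions and the corepressor gene Tle4 with 33. Of 37 activity-induced genes, 10 were nearest to 90 regions, of which 26.7% were called in all 17 and 16.7% held an AP-1 match. Inhba, the inhibin beta A subunit, led with 34 regions, 14 in all 17 libraries, and 11 of them were lost in males (of all gene desert regions, 20% were). Dusp4, a phosphatase of MAP kinases, had 14. The gained shares of the activity-induced list were 3.33% in diestrus, 2.22% in proestrus and 2.22% in males, from 3, 2 and 2 regions, where 2.12%, 4.21% and 5.96% of all gene desert regions were gained.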

How the data were processed

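The 17 deposited peak lists, 1 per library, were made by the authors, who used BWA-MEM for alignment to mm10 and MACS2 for peaks (versions and options are not given in the sources used here). Columns of the deposited files give the peak, its fold enrichment (a ratio of summit pileup to the library's background) and the −log10 of its p-value and q-value. The authors' differential analysis of counts was not used.

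Peaks of chromosomes 1 to 19 were merged where they overlapped by 1 bp or more, and regions called in 2 or more libraries were kept. Distances were measured from a region's edge to 52092 GENCODE M21 start sites of 20722 protein-coding genes. Windows reached 100 bp to each side of the summit of a region's most enriched peak over all libraries. They were read from the RefSeq GRCm38 genome, and AP-1, CRE, E-box and TAATTA were matched as exact letters. Samples were grouped by title. Library values were compared by exact permutation tests, within groups where several were combined (21 tests, Benjamini-Hochberg adjustment), region calls by Fisher's exact test and sets of regions within libraries by sign-flip permutation (100000 resamples, 4 tests). Regions called in 4 to 13 libraries could be tested. Python 3.11.15, SciPy 1.17.1 and statsmodels 0.14.6 were used. Merging was checked on part of the deposited peaks, and the tests were checked on simulated data.

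The members and gene lists were chosen with earlier results of these data known. Named regions were the leading ones by enrichment, gain or loss, Fisher p and distance (3 to 5 each), without mostly repeat or gap-flanking regions among those called everywhere. Alternatives were a −log10 q of 5, the 74532 strongest peaks per library, peaks covering 50% of a region, limits of 50 and 200 kb, 2 libraries within 1 group, 50 bp around the summit, a replicate block, and each library left out. Equal replicate numbers did not pair libraries (correlations of deviations −0.0581 to 0.0465). Read depth is unknown from these files, so peak numbers and a background pileup of 6.26 to 9.55 reads stand for precision.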

Additional observations from a re-analysis of the deposited data

Results flagged for a closer look

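The change in the number of gene desert regions called after cocaine had opposite signs over the female stages and in males. It was 1629 over the female stages and −4321 in males, a male minus female difference of −5950 (exact permutation of sex within each treatment, p = 0.000425, adjusted p = 0.00893). Male controls exceeded female controls by 4106, and permuting sex within each treatment tests that difference too. Neither this p-value nor those of the sex differences below measures the change with cocaine alone. All 3 male control libraries lay above both male cocaine libraries, and in proestrus all 3 cocaine libraries lay above the controls. The male cocaine libraries also had the fewest peaks, 86626 and 74532. With the same number of peaks taken from every library the difference was −2204 (exact permutation, adjusted p = 0.0417). As a share of called regions it was −1.58 points (exact permutation, adjusted p = 0.348), and −3.38 points where a −log10 q of 5 or more was required (exact permutation, adjusted p = 0.00893). The part of peak number in the difference was not tested further.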

How the results depend on the processing

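Numbers below are for gene desert regions. Peaks with a −log10 q of 5 or more gave a male share difference of −1.52, a share over the 3 groups of 0.736, a sex difference in share of −3.38 (exact permutation, adjusted p = 0.00893, a call gained), a male AP-1 difference of 2.08, a sex difference in AP-1 of 0.161, 62 lost in diestrus, 465 gained in proestrus, 157 gained in males, 421 called more often and an enrichment difference of −0.0428. An equal number of peaks gave 551 called over the 3 groups, 84 lost in diestrus, 452 gained in proestrus, 1460 lost in males, 137 called less often and an enrichment difference of −0.0611. Peaks covering 50% of the region gave male minus female controls of 4384 called, 4.10 share points and −1.77 AP-1 points, 1.74 AP-1 points over the 3 groups (exact permutation, adjusted p = 0.05 for the first 3 and 0.0674 for the last, so these calls were lost) and an enrichment difference of −0.0196. A 50 kb limit gave 0.336 male AP-1 points, 102 lost in proestrus, 478 called less often and −3.0 bp in width. A 200 kb limit gave 10.3 called over the 3 groups, male minus female controls of 2585 called, 1.83 share points and −2.16 AP-1 points (exact permutation, adjusted p = 0.05 for each, lost), 0.441 AP-1 points over the 3 groups (adjusted p = 0.233, lost), 235 gained and 67 lost in diestrus, 482 gained and 27 lost in proestrus, 2115 lost in males, 133 called less often and an enrichment difference of −0.0311. With 2 libraries of 1 group the enrichment difference was −0.000399, and with 50 bp around the summit the male AP-1 difference was 0.120. Choices made after seeing the data gave 1629 called in the female stages, and 423 called more and 25 less often in female libraries. The cause was not tested, except that a 200 kb limit leaves fewer regions.

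With the replicate block the share difference was 1.48 and the AP-1 difference 0.865 (exact permutation, adjusted p = 0.375 for both). Over the 12 comparisons of cocaine with control run with the block, no other call changed, and the comparisons between the sexes were not run with it.

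Leaving out 1 library at a time gave 3553 to 4431 for male minus female controls called, 2.24 to 3.16 for their share and −1.78 to −1.48 for their AP-1. Over the 3 groups share was 1.20 to 1.83 and AP-1 0.815 to 1.496. The male share was −0.675 to 1.15, male AP-1 −0.293 to 1.64 and the sex difference in AP-1 −1.72 to 0.217. Gained were 365 to 777 in diestrus, 725 to 1804 in proestrus and 439 to 1134 in males, and lost 134 to 700 in diestrus and 57 to 119 in proestrus. Called more often were 349 to 707 and less often 131 to 351.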
